A study of Mus musculus with 12 samples.

Results

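The Hedgehog pathway is described here through 9 genes, taken by symbol from the 54232 genes of the count table: the co-receptors Cdon, Boc and Gas1, the receptor Ptch1, the decoy receptor Hhip, the signal transducer Smo and the transcription factors Gli1, Gli2 and Gli3. All 9 were listed, and 7 had enough counts to be tested, Gli1 and Hhip being the exceptions. The set was selected on normalized CPM across the 4 treatments in these same tumors, so the levels and fold changes of the 9 genes are given as a description and without p-values. RNA was sequenced from 12 subcutaneous tumors grown from SVR, a mouse angiosarcoma cell line made from endothelial cells transformed with Ras, in athymic nude mice (the labels name the strain C57BL/6). Each of 4 groups held 3 tumors: vehicle control, the MEK inhibitor trametinib at 1 mg/kg, the VEGF receptor inhibitor cediranib at 3 mg/kg, and both drugs at those doses (combination), all by daily oral gavage and, per the labels, until a tumor ulcerated or exceeded 1 cm. The study also describes an experiment with a common harvest time, and which of its experiments gave these tumors is not stated. SVR is a single line, time on treatment could differ between tumors, and whole tumor lysate was used, so tumor cells, host stroma and skin are all mouse and were read together. In such bulk RNA, fewer cells of a type and less RNA per cell cannot be told apart. Libraries held 9478865 to 11666094 counts, and all 12 entered 1 fit.

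Hedgehog ligands are secreted proteins that bind Patched at the cell surface. Unbound Patched holds Smoothened inactive, and once ligand binds, Smoothened moves into the primary cilium and the GLI factors are turned from repressors into activators of transcription. CDON, BOC and GAS1 bind ligand together with Patched and promote signaling, whereas HHIP binds ligand and withholds it. Gli1, Ptch1 and Hhip are themselves classic targets of the pathway. CDON and BOC are also cell surface proteins of the immunoglobulin family that take part in muscle differentiation with cadherins, and CDON has been described as a receptor for netrins.

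The sequences upstream of the RefSeq starts of 3 genes are shown. These members were the ones that passed the FDR in at least 1 comparison, and they differ in base composition. They are RefSeq windows on GRCm38.p6, written 5′ to 3′ on the strand of the gene, with CG dinucleotides in capitals. RefSeq windows were matched for 7 of the 9 genes. The Cdon window lies at chr9:35451826-35452044 on the plus strand, the Ptch1 window at chr13:63565736-63565985 on the minus strand, and the Gli3 window at chr13:15463473-15463722 on the plus strand.
Cdon: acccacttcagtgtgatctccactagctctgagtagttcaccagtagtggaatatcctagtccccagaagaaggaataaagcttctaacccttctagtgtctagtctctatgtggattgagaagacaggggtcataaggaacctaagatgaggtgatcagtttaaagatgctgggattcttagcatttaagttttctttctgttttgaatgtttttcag
Ptch1: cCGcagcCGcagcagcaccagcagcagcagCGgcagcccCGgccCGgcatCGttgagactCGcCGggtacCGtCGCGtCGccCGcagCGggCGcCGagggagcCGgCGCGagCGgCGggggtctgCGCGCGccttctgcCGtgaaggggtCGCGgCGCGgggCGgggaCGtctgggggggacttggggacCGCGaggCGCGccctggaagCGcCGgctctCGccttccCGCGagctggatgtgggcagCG
Gli3: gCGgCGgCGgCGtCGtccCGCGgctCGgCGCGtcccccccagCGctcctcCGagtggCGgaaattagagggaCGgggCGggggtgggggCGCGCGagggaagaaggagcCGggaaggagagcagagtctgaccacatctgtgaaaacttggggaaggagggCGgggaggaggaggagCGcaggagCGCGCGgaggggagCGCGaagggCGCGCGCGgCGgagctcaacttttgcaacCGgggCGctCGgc
The Cdon stretch held 0 CG dinucleotides in 219 bases, while Ptch1 held 41 and Gli3 held 34 in 250 bases each. Over the 250 bases before its RefSeq start, Cdon had 42.8% G and C, and 19.0% of 32851 mouse windows were at or below that share (median 52.4%, with a median of 6 CG dinucleotides). The Ptch1 and Gli3 windows had 78.4% and 72.8% G and C. The RefSeq start of Cdon lies 30948 bases inside the GENCODE gene model, where the bases shown are intronic for 4 of 6 annotated transcripts, so this window need not be the start used in these tumors. The RefSeq starts of Ptch1 and Gli3 lie 7863 and 488 bases inside their gene models. Each of these windows is spanned by 2 transcripts, so the same limit holds for Ptch1 and Gli3. The motifs GACCACCCA (GLI consensus), TGANTCA (AP-1) and CCGGAAGT (ETS) were searched on both strands and occur in 0.225%, 6.75% and 2.88% of all such windows. None of the 7 matched windows held any of the 3, which says only that these letters are not in the 250 bases searched.

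Levels between genes were compared per length, as CPM (counts scaled to library size) per kilobase of exon. Over the 12 tumors the median was 15.6 CPM per kb for Smo, 13.4 for Gli3, 4.15 for Ptch1, 3.39 for Boc, 2.36 for Cdon, 1.32 for Gli2 and 0.675 for Gas1. Gli1 followed at 0.0352 CPM per kb, and Hhip had a median of 0. Smo and Gli3 overlapped in range (13.8 to 17.9 and 9.66 to 18.5 CPM per kb), and each of the neighbors Ptch1, Boc, Cdon, Gli2 and Gas1 overlapped with the next one. The place of Cdon in this order depended on the group. Its mean level was 0.450 CPM per kb in control tumors, under Gas1 at 0.933, and 5.56 CPM per kb in trametinib tumors, beside Ptch1 at 5.61. The capture probes of the exome library also shape levels between genes.

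**Figure D1:**
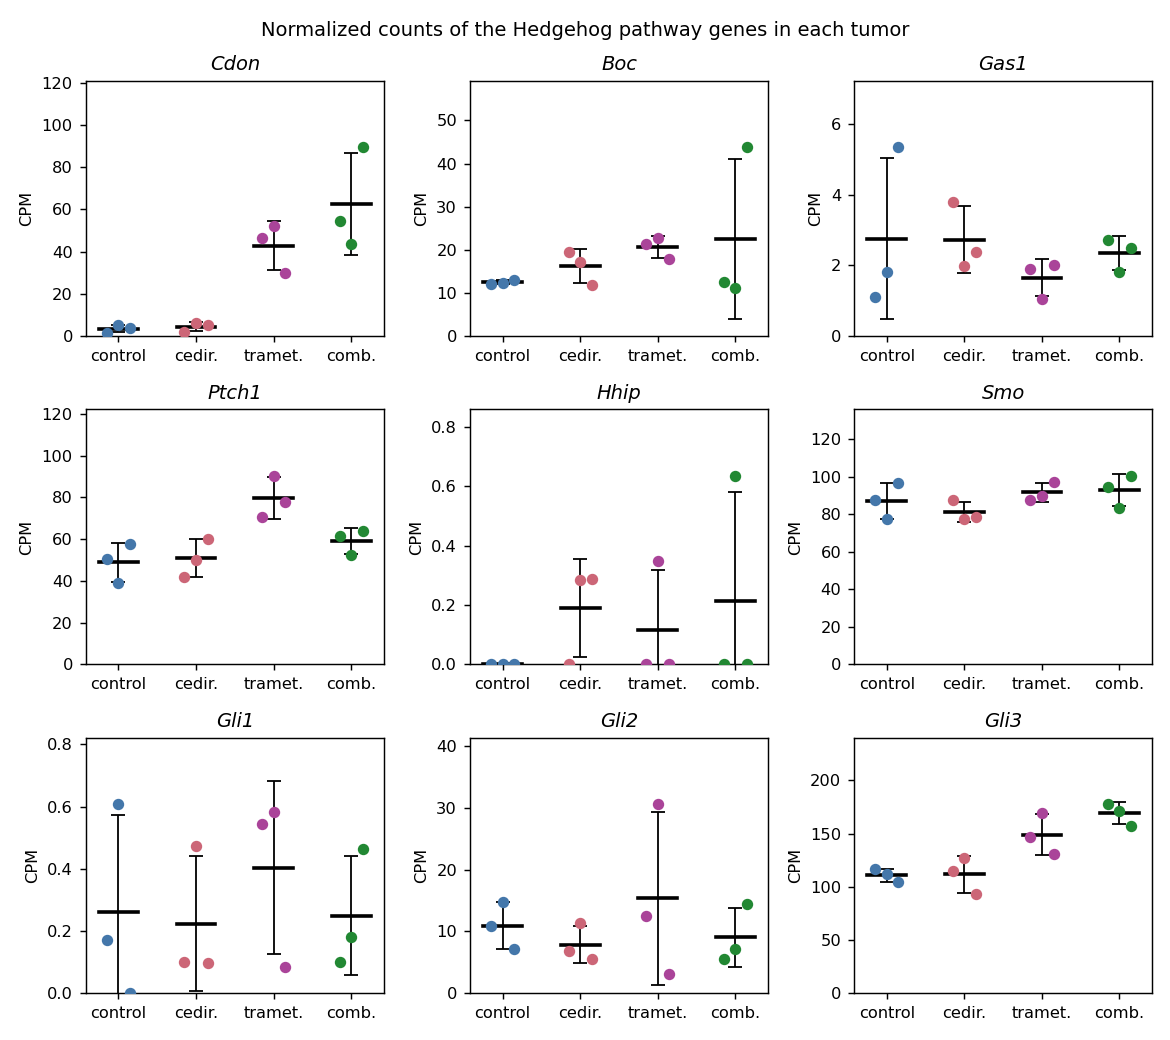
Level of the 9 genes in each of the 12 tumors (points, CPM on linear axes from 0) by treatment group, with the group mean (long bar) and SD (whiskers, cut at 0, n = 3). Cdon lies between 1.62 and 6.34 CPM in the 6 tumors without trametinib and between 30.1 and 89.6 CPM in the 6 tumors with it, while Smo stays between 77.4 and 100.6 CPM.

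Cdon, the Hedgehog co-receptor, was the member with the widest range, and its level followed trametinib. Control tumors had 1.62, 5.17 and 3.64 CPM and cediranib tumors 2.00, 6.34 and 4.98 CPM. Trametinib tumors had 46.6, 52.0 and 30.1 CPM and combination tumors 54.5, 43.7 and 89.6 CPM. All 6 tumors given trametinib, alone or with cediranib, lay above all 6 that were not, control and cediranib overlapped, and trametinib and combination overlapped. The log2 fold change against control was 3.63 (SE 0.47, 12.4-fold higher) with trametinib and 4.18 (SE 0.48, 18.1-fold higher) with the combination. These comparisons use the same 3 control tumors. Against cediranib alone, the combination differed by 3.81 (SE 0.47, 14.0-fold higher) on the log2 scale. Cediranib alone differed from control by 0.37 (95% interval -0.57 to 1.31) and the combination from trametinib by 0.55 (-0.24 to 1.34). Both intervals included 0. The difference between combination and trametinib was 0.20 without combination replicate 3. The difference between the trametinib effect with and without cediranib was 0.18 (SE 0.63) on the log2 scale.

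Genes with an FDR up to 0.05 were called where the log2 fold change also reached 1.5 in either direction. With trametinib, 1 of the 7 tested members was called (Cdon, higher), where 2.4% of 12897 tested genes were called in either direction and 0.977% higher. With the combination it was again 1 of 7 against 3.61% of all genes (1.91% higher), and for combination against cediranib 1 of 7 against 2.45% (1.29% higher). For cediranib against control 0 members were called, as were 0% of all genes by edgeR (557 at an unadjusted p under 0.05, and 10 called by DESeq2), and for combination against trametinib 0 members, with 0.675% of all genes. Since the set was chosen with these comparisons known, these counts describe the set and carry no weight beyond that. The other 6 tested members did not reach the threshold. With the FDR alone, Ptch1 also passed for trametinib against control (2 of 7, with 6.12% of all genes), and Gli3 passed for the combination against control (2 of 7, with 9.98%) and against cediranib (2 of 7, with 7.68%).

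**Figure D2:**
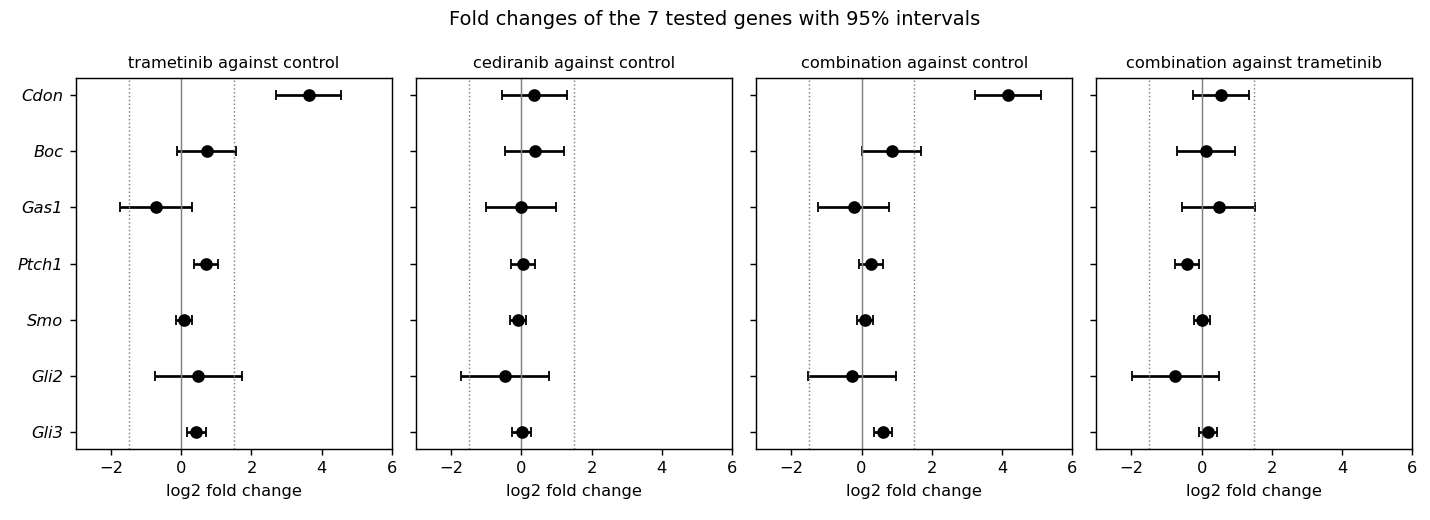
Log2 fold change (points) with 95% interval (whiskers) of the 7 tested genes in 4 comparisons. Solid lines mark 0 and dotted lines the minimum change of 1.5 in either direction. Cdon at 3.63 and 4.18 is the only point beyond a dotted line.

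Marker genes of other cell types were set beside Cdon, since a subcutaneous tumor can hold skin, muscle and stroma. The 12 epidermal markers summed to 4.02 to 9.99 CPM in trametinib tumors and to 2927 to 4426 CPM in combination tumors, where Cdon was high in both. Krt1, Perp, Ivl and Dsg1a were at 0 in all 3 trametinib tumors. The most abundant epidermal markers, Krt14, Krt5 and Dsp, reached at most 4.63 CPM there. With an epidermal score added to the model, Cdon remained called, with log2 fold changes of 3.21 for trametinib and 5.23 for the combination against control. The difference between combination and trametinib went from 0.55 to 2.03. The centred log2 score was -3.51 to -2.98 in trametinib tumors and 2.84 to 3.40 in combination tumors. Score and treatment therefore cannot be told apart between these groups, and this setting does not separate epidermis from treatment. Summed skeletal muscle markers were highest in control replicate 2 (16846 CPM) and trametinib replicate 2 (24036 CPM), where Myh4 and Acta1 were the most abundant, and Cdon was 5.17 and 52.0 CPM in these. Without both tumors, left out after the values were seen, the Cdon log2 fold change with trametinib was 3.88.

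The 10 fibroblast markers, led by Col1a1, Col1a2 and Col3a1, summed to 2242 to 21181 CPM in control tumors and to 8871 to 37140 CPM in trametinib tumors. In cediranib and combination tumors they summed to 1760 to 6826 CPM and 3139 to 5941 CPM. These sums are carried by Col1a1, and some single markers moved with Cdon while others did not. For combination against cediranib 7 of 9 tested markers were higher, with a median log2 fold change of 1.21, and for trametinib against control 8 of 9, with a median of 1.28. For combination against control 5 of 9 were higher and 4 lower, with a median of 0.46, 1 being called higher and 1 lower. Pdgfra, a receptor of stromal fibroblasts, was at 7.99 to 17.7 CPM in the 6 tumors without trametinib and at 20.2 to 39.9 CPM in the 6 with it. Fbln1, a matrix protein gene, was likewise at 82.9 to 195 CPM without and 247 to 761 CPM with trametinib, so both split the tumors as Cdon did. The share of all genes with such a split was not counted. Other markers of this list went the other way with the combination. Pdgfrb was at 17.5 to 36.1 CPM in control and 6.81 to 9.93 CPM in combination tumors. Col1a2 was at 371 to 3717 CPM in control and 230 to 406 CPM in combination tumors. Pdgfra, Fbln1 and Pdgfrb were picked out after their values were seen. All 9 tested endothelial markers of 10 were lower for trametinib against control, where 4 were called (44.4% beside 2.4% of all genes). They were also lower for the combination against control, with 5 called (55.6% beside 3.61%), and against cediranib, with 3 called (33.3% beside 2.45%). For cediranib against control all 9 were lower too, and 0 were called. The sum of the 10 endothelial markers ran opposite to Cdon. It was 193 to 424 CPM in control and 113 to 318 CPM in cediranib tumors, against 47.7 to 109 CPM in trametinib and 32.7 to 77.8 CPM in combination tumors. Tie1, Cdh5 and Tek led this list, Pecam1 reached at most 5.01 CPM in any tumor, and Emcn was near 0, although the tumor line itself is of endothelial origin. The 8 macrophage markers, led by Mrc1, Csf1r and Lyz2, summed to 400 to 693 CPM in control and 311 to 434 CPM in trametinib tumors. In cediranib and combination tumors they summed to 295 to 450 CPM and 178 to 316 CPM. For combination against control all 8 were lower, with a median log2 fold change of -0.95, and 2 were called (25% beside 3.61% of all genes). For trametinib against control 5 of 8 were lower and 0 were called. The part of skin, fibroblasts, endothelial cells and macrophages in the Cdon difference was not tested.

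**Figure D3:**
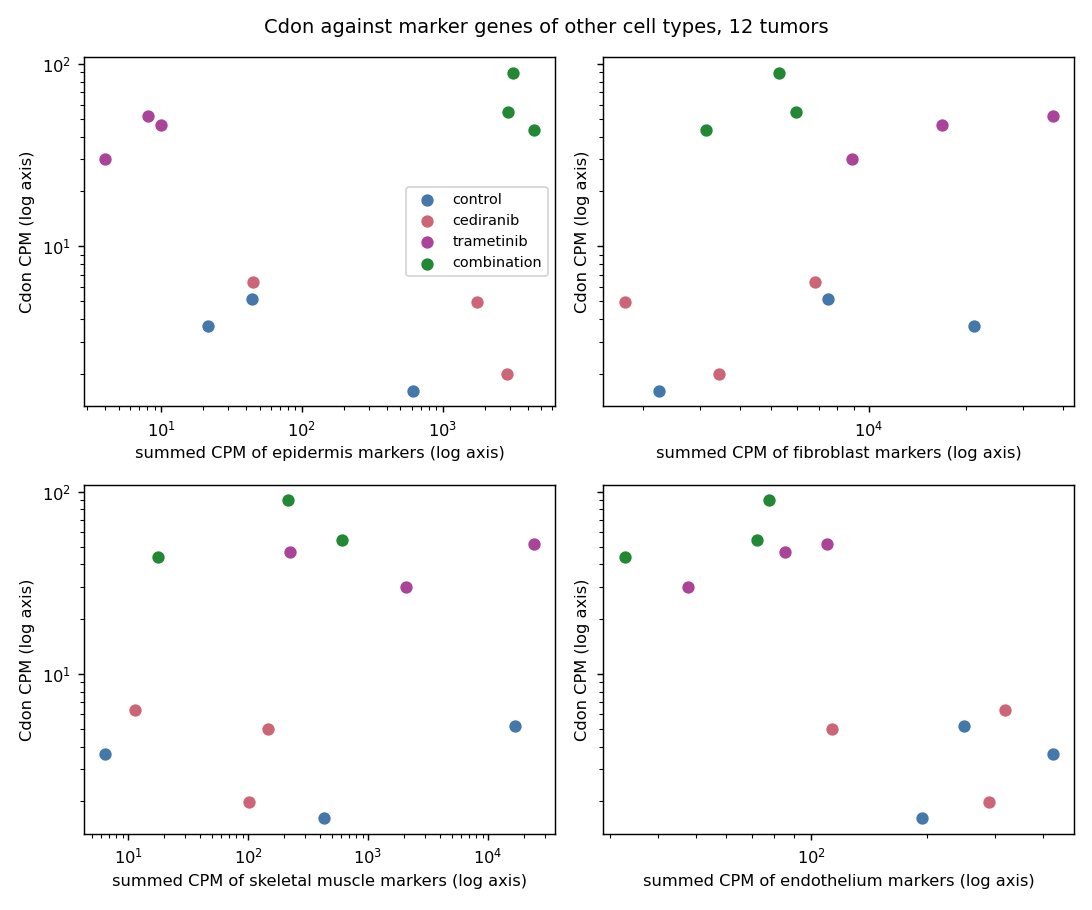
Cdon CPM against the summed CPM of marker genes of epidermis, fibroblasts, skeletal muscle and endothelium in the 12 tumors, on log axes, colored by group. Trametinib and combination tumors lie at 30.1 to 89.6 CPM of Cdon at both ends of the epidermal axis, and on the endothelial axis they lie at 32.7 to 109 CPM, below the other 6 tumors.

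Boc, the paralog of Cdon, did not share its pattern. It was at 12.01, 12.4 and 12.9 CPM in control tumors, 21.3, 22.7 and 17.7 CPM in trametinib tumors, 19.6, 17.2 and 11.8 CPM in cediranib tumors and 12.5, 11.2 and 43.8 CPM in combination tumors. Every trametinib tumor lay above every control tumor, as was so for 12.9% of all tested genes, but the log2 difference of 0.73 (SE 0.43) had a 95% interval of -0.11 to 1.56. Combination replicate 3 stood apart from the other combination tumors and also held the highest Cdon level. The log2 fold change of Boc for the combination against control was 0.86 (SE 0.43), and -0.08 without that tumor. Against trametinib and against cediranib it likewise went from 0.13 to -0.79 and from 0.48 to -0.45 without that tumor.

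Gas1, the third co-receptor, which is anchored to the membrane by a lipid, was low. Its values were 1.11, 1.82 and 5.35 CPM in control, 1.91, 1.05 and 2.01 CPM in trametinib, 3.80, 1.99 and 2.39 CPM in cediranib and 2.73, 1.82 and 2.51 CPM in combination tumors. All groups overlapped, and the trametinib difference of -0.71 (SE 0.53) on the log2 scale became 0.20 without control replicate 3. Part of Gas1 lies opposite the noncoding gene Gm48488, and whether counting used strand is not stated in the methods or labels.

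Ptch1, the receptor that restrains Smo and a target of the GLI factors, had a modest pattern of its own. It was at 50.3, 38.9 and 57.5 CPM in control tumors and 70.7, 90.4 and 77.6 CPM in trametinib tumors. In cediranib tumors it was at 42.0, 50.2 and 60.3 CPM and in combination tumors at 61.3, 52.2 and 63.8 CPM. The trametinib tumors were above both the control and the combination tumors with no overlap, whereas control, cediranib and combination overlapped. The log2 fold change was 0.70 (SE 0.17, 1.63-fold) for trametinib against control and -0.43 (SE 0.17) for the combination against trametinib, a separation downward that 11.8% of tested genes also had. Without the muscle-rich control replicate 2 and trametinib replicate 2, the former was 0.46. The combination differed from control by 0.27 (95% interval -0.07 to 0.61), and the trametinib effect was smaller by 0.48 (SE 0.25) on the log2 scale with cediranib than without it, a difference that was not called.

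Smo, the transducer, was the steadiest member. Control tumors had 87.6, 77.4 and 96.6 CPM, trametinib tumors 87.8, 89.8 and 97.2 CPM, cediranib tumors 87.5, 77.6 and 78.4 CPM and combination tumors 94.7, 83.6 and 100.6 CPM. The groups overlapped in all 5 comparisons made, and the highest tumor was 1.30 times the lowest. The log2 difference with trametinib was 0.07 (95% interval -0.16 to 0.30) and with the combination 0.09 (-0.13 to 0.32).

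Hhip, which withholds ligand, was hardly detected. No read was counted in 8 of 12 tumors, and the highest count was 7 in a combination tumor. The summed count was 0 in control tumors, which allows up to 0.0952 CPM at 3 counts over the group (upper limit 0.117 CPM by the exact 2-sided Poisson interval), and 3, 6 and 7 in trametinib, cediranib and combination tumors. The exact Poisson 95% interval for the combination was 0.0888 to 0.455 CPM, overlapping those of the other groups. Floors and intervals of this kind cover counting error only.

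Gli1, an activator and the most used readout of the pathway, was also near the floor. Control tumors had counts of 2, 6 and 0, trametinib tumors 6, 5 and 1, cediranib tumors 1, 5 and 1, and combination tumors 1, 2 and 5. The group sums were 8, 12, 7 and 8 counts, that is 0.254, 0.380, 0.226 and 0.252 CPM with exact Poisson 95% intervals from 0.0907 to 0.664 CPM. A difference in Gli1 between groups was not detectable at this depth. Exons of Gli1 overlap the spans of Arhgap9 and Gm47200 on the other strand. Whether they meet exons of those genes was not examined, so it is open whether all of these few reads belong to Gli1.

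Gli2, the main activator in many tissues, was at 10.9, 14.7 and 7.17 CPM in control, 12.4, 30.6 and 3.01 CPM in trametinib, 6.79, 11.3 and 5.45 CPM in cediranib and 5.55, 7.08 and 14.5 CPM in combination tumors. The groups overlapped in every comparison. The highest values within the control and trametinib groups were those of replicate 2, the tumors with the highest muscle markers. The log2 fold change with trametinib was 0.48 (SE 0.63), and -0.50 without trametinib replicate 2.

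Gli3, which acts mostly as a repressor when no ligand is present, was the most abundant GLI factor. It was at 117, 112 and 104 CPM in control tumors, 147, 170 and 130 CPM in trametinib tumors, 115, 127 and 92.6 CPM in cediranib tumors and 178, 172 and 158 CPM in combination tumors. The 6 tumors with trametinib lay above the 6 without it, as for Cdon, but over a far smaller range. The log2 fold change was 0.43 (SE 0.14, 1.34-fold) with trametinib and 0.61 (SE 0.14, 1.52-fold) with the combination against control, and 0.60 (SE 0.14) for the combination against cediranib. Separation upward between those groups was found for 12.9%, 15.6% and 14.1% of tested genes. Part of Gli3 lies opposite the transcript Gm6556. With libraries scaled by their totals, the median of all genes in the combination comparisons shifted by 0.114 to 0.130 on the log2 scale, and the Gli3 difference from control was 0.73 on that scale.

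The rest of the pathway was read from 6 lists with 72 genes besides the 9, of which 59 were tested. With trametinib 1 was called higher and 2 lower, a share of 5.08% against 2.4% of all genes, and their median log2 fold change was 0.06 against 0.01 over all genes. With the combination 2 were called lower against control, 3.39% beside 3.61% of all genes, and 2 lower against cediranib, 3.39% beside 2.45%. Cediranib alone had 0 called by edgeR and by DESeq2, with 1 of 59 at an unadjusted p under 0.05. Combination against trametinib had 1 called higher, 1.69% beside 0.675%. These called genes were Ntn1, Ccnd1, Bcl2 and Lrp2.

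Among ligands and their release, 6 of 9 listed genes were tested and 0 were called by edgeR in any comparison, with 0 to 3 at an unadjusted p under 0.05. Scube3, whose product helps release lipid-bearing ligand, was at 0.606 to 1.36 CPM in control and 2.76 to 4.54 CPM in trametinib tumors, with a log2 fold change of 1.70 (SE 0.48, edgeR FDR 0.06), and DESeq2 called it there and for combination against cediranib. Dhh, desert hedgehog, was the ligand with measurable counts. It was at 5.11, 7.30 and 6.06 CPM in control, 3.36, 1.86 and 3.01 CPM in trametinib, 7.79, 5.86 and 6.41 CPM in cediranib and 3.94, 2.36 and 2.32 CPM in combination tumors. The 6 tumors with trametinib lay below the 6 without it, and the share of all genes with such a split was not counted. The log2 fold change against control was -1.15 (SE 0.29, edgeR FDR 0.038) with trametinib and -1.10 (SE 0.29, FDR 0.035) with the combination, and -1.22 (FDR 0.027) for combination against cediranib, all under the minimum change of 1.5. Shh had 0 counts in all control and trametinib tumors, and Ihh at most 0.726 CPM in any tumor.

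Of the other receptors and surface modulators, 11 of 12 were tested. Lrp2, a large endocytic receptor that also takes up Hedgehog ligand, was called lower with the combination against control, at -3.94 (SE 1.12, edgeR FDR 0.046), and against cediranib, at -4.18 (SE 1.11, FDR 0.042). Its counts were few, with 7, 11 and 32 in control, 4, 7 and 1 in trametinib, 40, 8 and 11 in cediranib and 2, 1 and 0 in combination tumors. The 3 combination counts against 50 in control gave a ratio of 0.0597 (exact Poisson 95% interval 0.0119 to 0.185). The call was lost without any 1 combination tumor in either comparison, without control replicate 2 (-4.15) or 3 (-3.01) against control, and without cediranib replicate 1 (-3.10) or 3 (-4.47) against cediranib.

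The 14 genes between Smo and GLI, among them Sufu, the inhibitor that holds GLI in the cytoplasm, had 0 called by edgeR or DESeq2 in any comparison, with 0 to 5 at an unadjusted p under 0.05. Sufu ranged from 70.4 to 90.5 CPM, with a log2 difference of -0.08 (SE 0.12) with trametinib. Of primary cilium transport genes, whose products carry Smo and GLI into the cilium, 14 of 15 were tested and 0 were called by edgeR or DESeq2, with 0 to 4 at an unadjusted p under 0.05. Their median log2 fold change was 0.15 with trametinib and 0.34 with the combination, beside 0.0057 and 0.0015 over all genes. With the combination 12 of 14 were positive, and the share of positive changes over all genes was not counted.

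Of 11 listed GLI target genes, 7 were tested. With trametinib Ccnd1 and Bcl2 were called lower, 28.6% beside 2.4% of all genes. Foxf1, Foxf2, Foxl1, Foxa2, Nkx2-2, Ccnd2, Mycn and Snai1 were either untested or not called. With the combination 1 was called lower against control (14.3% beside 3.61%), 1 lower against cediranib (beside 2.45%) and 1 higher against trametinib (beside 0.675%). Fold changes of 3 of 7 were positive for trametinib and for the combination against control. Ccnd1, the G1 cyclin D1 gene that many growth signals besides Hedgehog control, fell from 89.5, 113.6 and 93.5 CPM in control to 22.1, 22.1 and 16.4 CPM in trametinib tumors, and was 32.9, 29.7 and 35.2 CPM in combination tumors. Its log2 fold change was -2.29 (SE 0.16, edgeR FDR 1.8e-05) with trametinib, -1.60 (FDR 0.00037) with the combination against control and -1.78 (FDR 0.0002) against cediranib. The combination difference from control was -1.49 without control replicate 2 and -1.47 with libraries scaled by their totals, both just under the minimum change. Bcl2, an inhibitor of cell death, was at 8.77, 10.9 and 12.6 CPM in control, 3.27, 1.98 and 1.76 CPM in trametinib and 7.57, 7.08 and 13.1 CPM in combination tumors. It was lower with trametinib by -2.20 (SE 0.31, edgeR FDR 0.0017) and higher in combination than in trametinib tumors by 1.98 (SE 0.31, FDR 0.023), with no overlap in either case. The latter call was lost without trametinib replicate 2 or 3 and without combination replicate 2 or 3, the log2 difference then being 1.64 to 2.16.

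Of the partners of CDON and BOC, 8 of 13 listed genes were tested. Ntn1, a netrin and ligand for several receptors of this family, was called higher with trametinib, at 2.27 (SE 0.48, edgeR FDR 0.016). It was at 4.17, 4.46 and 3.33 CPM in control, 12.4, 10.9 and 34.3 CPM in trametinib, 3.60, 4.54 and 4.40 CPM in cediranib and 7.98, 14.5 and 4.36 CPM in combination tumors. Trametinib replicate 3 was the highest, and without it the log2 fold change was 1.55 and no longer called. The call was also lost without control replicate 2 (2.36) or 3 (2.16). Neo1, a netrin receptor related to CDON, was not called in any comparison, at 0.19 (SE 0.20) with trametinib. Cdh2, the N-cadherin with which CDON associates, was lower by -0.66 (SE 0.15, edgeR FDR 0.025) with trametinib and -0.79 (SE 0.15, FDR 0.0098) with the combination, under the minimum change.

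**Figure D4:**
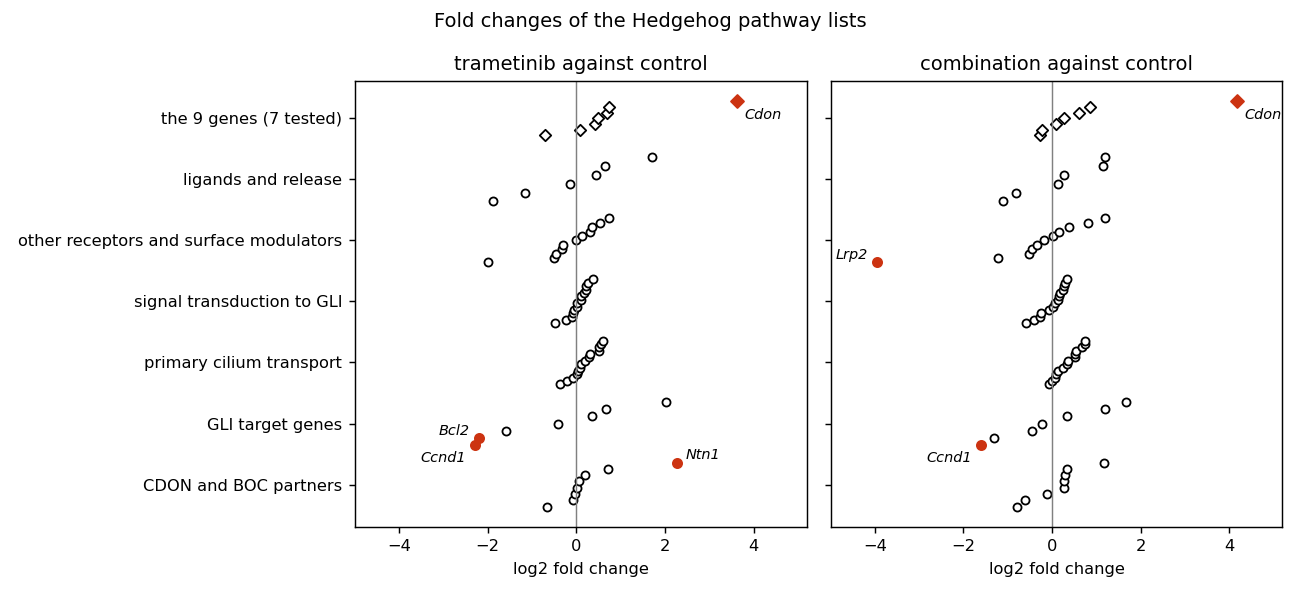
Log2 fold changes of the 9 genes (diamonds, 7 tested) and of the 6 pathway lists (circles) with trametinib and with the combination against control, called genes filled red and named. Cdon stands at 3.63 and 4.18, while Ccnd1 at -2.29 and -1.60 and the other called genes lie on either side of 0.

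For the difference in trametinib effect with and without cediranib, 0 of 66 tested pathway genes including the members were called by edgeR, 4 had an unadjusted p under 0.05, the smallest FDR was 0.504 and DESeq2 called 0. Among all 12897 tested genes edgeR likewise called 0, and 909 had an unadjusted p under 0.05, so these counts are not particular to the pathway. As a check on the drug, 8 of 14 tested outputs of the MAPK pathway were called lower with trametinib, with a median log2 fold change of -2.58, and 8 of 14 with the combination, with a median of -1.71.

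Among the genes whose levels ran most like those of Cdon over the 12 tumors, by Pearson's r of log2 CPM out of 12896 genes compared, were Tanc2 (0.970), Pcdh19 (0.951), Gm527 (0.943) and Acss2 (0.943). Pcdh19, a protocadherin, had log2 fold changes of 3.38 with trametinib and 3.21 with the combination against control. Tanc2, a scaffold protein gene, had log2 fold changes of 1.14 and 1.32. For Boc the closest were Pik3r1 (0.916), Ism1 (0.910), Pias1 (0.866), Jcad (0.858) and Ip6k1 (0.858), and for Gas1 they were Wwc1 (0.849), Gm9754 (0.838), 2510039O18Rik (0.817), Ppp6r1 (0.807) and Ehd1 (0.803). The points share treatment groups, and the genes were picked for this likeness, so these values are a description only.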

How the data were processed

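RNA from 12 tumors was captured with an exome library and sequenced. Per the labels and the submitters' notes, the authors demultiplexed with bcl2fastq 1.8.4, aligned reads with STAR 2.7.1a to GRCm38 and deposited raw counts per gene made with featureCounts 1.6.0 (Subread). The sources used here do not give the annotation, strand setting or treatment of multiply mapped reads. Libraries held 9478865 to 11666094 counts, so 3 counts correspond to 0.251 to 0.349 CPM. Counts of 12897 of 54232 genes that passed filterByExpr were tested with edgeR 4.0.16 (R 4.3.3, quasi-likelihood test, TMM factors of 0.908 to 1.098, Benjamini-Hochberg adjustment over all tested genes). CPM used the effective library size, and intervals are the estimate with 1.96 SE. No 2 libraries were identical. The labels name separate tumors, so p-values measure only the spread between these samples.

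The 9 genes and all lists were chosen with earlier results of these data known. Named were the 9 genes, list genes called in any of 5 comparisons (at most 5 a list), the 5 genes most like Cdon, Boc and Gas1, and the 3 most abundant genes of a marker list that moved. Dhh, Shh, Ihh, Scube3, Sufu, Neo1, Cdh2 and the myogenic factors were added after their values were seen. Some items are not reported here. Same-numbered tumors did not deviate together (correlations of -0.219 to 0.356), so no block was used. Alternatives were DESeq2 1.42.0, other scaling, no low count filter, an epidermal score, a replicate block, 2-group fits, no fold minimum, leaving out each tumor, and, added after seeing the data, leaving out both muscle-rich tumors. The test was also run on simulated counts, and its outcome there is not reported here. Coordinates, overlaps and windows are from GENCODE M21 and RefSeq.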

Additional observations from a re-analysis of the deposited data

How the results depend on the processing

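Cdon remained called for trametinib and for the combination against control and for the combination against cediranib under every alternative and without any 1 tumor, and no other member was called under any alternative that kept the minimum fold change. With the FDR alone, 2 members passed in each of these 3 comparisons. Counts of other pathway genes were small and moved more. With the FDR alone they were 7 for trametinib and 8 for the combination against control, 2 for the combination against trametinib and 5 against cediranib. Without the low count filter they were 8, 5, 3 and 4, and 2 genes had a called difference between the trametinib effects with and without cediranib. For the combination against control the count was 1 with library totals, with the epidermal score and with the replicate block, and 0 to 2 without 1 tumor. For the combination against trametinib it was 0 with the epidermal score and 0 to 1 without 1 tumor. For the combination against cediranib it was 1 with the epidermal score, with the replicate block and in the fit of the 2 groups alone, and 1 to 2 without 1 tumor. Without both muscle-rich tumors these 3 counts were 0, 0 and 1. The cause was not tested. The replicate block changed no other count by over 1.5 times, and 4 of 12 samples were nearest to one of their own number, so the numbers gave no pairing. Depth limited Gli1 and Hhip, for which no difference between groups was detectable. The Cdon difference between combination and trametinib, not called, moved from 0.55 to 2.03 with the epidermal score, which cannot be told apart from treatment between these groups.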

Other observations

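Shh, the sonic hedgehog ligand, was at 1.53 CPM (16 counts) in cediranib replicate 3 and at most 0.371 CPM in any other tumor. The same tumor had the highest summed hair follicle markers, 750 CPM, against 66.6 to 481 CPM in the other cediranib and the combination tumors. Myog, a myogenic transcription factor among the listed partners of CDON and BOC, was at 11.4 CPM in trametinib replicate 2, the tumor with the highest muscle markers, and at most 0.921 CPM elsewhere, while Myod1 reached 0.810 CPM and Myf5 0.304 CPM, both in control replicate 2. Control replicate 2, also high in muscle markers, had Cdon at 5.17 CPM.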
